A study of Mus musculus with 4 samples.

Results

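The study set PTIP -/- against PTIP +/+ mouse embryonic fibroblasts, and the genes described here are 10 partners of PTIP in the 53BP1 branch of the DNA double-strand break response: Atm, H2ax, Mdc1, Rnf8, Rnf168, Trp53bp1, Rif1, Mad2l2, Dclre1c and Brca1. Every probe set that the platform annotation gives to 1 of these symbols alone was taken, which gave 22 probe sets of 34945 with a single symbol and covered 9 of the 10 genes, of 18193 genes with a probe set. Trp53bp1 had 6 of them, Rif1 and Brca1 4 each, Atm and Rnf168 2 each, and H2ax, Mdc1, Rnf8 and Mad2l2 1 each. The annotation used names no probe set for Dclre1c, alone or beside another symbol, so that gene was not analysed here. Probe sets of 1 gene read the same transcripts, several were built on the same sequence record, and they are not replicates of one another.

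A double-strand break is first marked by the kinase ATM, which phosphorylates the histone variant H2AX. MDC1 binds that mark and brings in the ubiquitin ligases RNF8 and RNF168, and the ubiquitin they place on chromatin is read by 53BP1, the product of Trp53bp1. Phosphorylated 53BP1 recruits PTIP, which works with the nuclease Artemis (Dclre1c), and RIF1, which works through the MAD2L2-containing shieldin complex; these arms protect the ends from resection, whereas BRCA1 favours resection and repair by homologous recombination. PTIP therefore meets these proteins at the break, and the comparison asks whether the messenger RNAs of its partners differ when PTIP is gone.

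The cells were immortalized fibroblasts whose 2 Paxip1 alleles, which encode PTIP, are flanked by loxP sites. A retrovirus with Cre recombinase gave the group labelled PTIP -/-, and a retrovirus with vector alone gave the group labelled PTIP +/+, whose floxed alleles are uncut by Cre. Both were grown in 10% serum and selected with puromycin at 2.5 ug/ml. Each genotype gave 2 RNAs, numbered 1 and 2, and 4 Affymetrix arrays in all. Whether a number stands for a separate infection, culture or day is not stated, nor is the number of lines or clones. The p-values thus measure only the spread between these RNAs, which may be technical, and the number of arrays limits the precision.

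Below, each signal is given as the PTIP -/- arrays numbered 1 and 2 against the PTIP +/+ arrays numbered 1 and 2. The labels were checked on Paxip1 itself. On its brightest probe set the signals were 43.5 and 74.6 against 1029.5 and 1040.1, a level 18.2-fold lower in PTIP -/-. The first of these lies under the readable level (a signal of 47.7), and with it raised to that level the fold is 17.4. The other 3 probe sets of Paxip1 lay below the readable level on both PTIP -/- arrays, at least 5.50-fold lower on one, 8.02-fold on another and 8.59-fold on the last. The exons lost to Cre are not stated, so the place of these probe sets relative to them is unknown. Even this gene had an adjusted p of 0.9998 in the limma fit. All 10 fibroblast markers tested were readable, Vim being the brightest. Thy1, a fibroblast surface marker, nevertheless read 14822.9 and 16080.1 on the arrays numbered 1 and 1500.7 and 239.2 on those numbered 2, and Pdgfra 3563.4 and 5010.1 against 174.2 and 583.2. These 2 were the only ones of the 10 lower on the array numbered 2 in PTIP +/+, while 5 of the 10 were lower on it in PTIP -/-. The brightest epithelial, endothelial, immune and skeletal muscle markers were Epcam (220.4 to 436.1), Kdr (107.0 to 172.0), Cd68 (73.0 to 112.1) and Ckm (85.2 to 164.4), with 2 markers of each list readable on average, while Cdh1 and Pecam1 stayed at or under 21.7. The summed signal of the 5 skeletal muscle markers was 370.6 and 338.6 against 281.9 and 207.4. Of them, 4 (Ckm, Des, Myod1 and Actn2) were higher in both PTIP -/- arrays than in both PTIP +/+ arrays. Of all tested probe sets, 18.0% were. Only 2 of the 5 had a readable mean signal and were tested. The epithelial keratin Krt18 was also higher in both PTIP -/- arrays (85.6 and 57.4 against 17.0 and 20.6). Its PTIP +/+ values lay under the readable level, and it was not tested. The summed immune markers were slightly higher in PTIP -/- without overlap (295.1 and 284.1 against 273.7 and 239.7), and the epithelial and endothelial sums overlapped (432.9 to 790.4 and 222.2 to 357.6). The fibroblast sum was lower in both PTIP -/- arrays (182079 and 164739 against 193083 and 205510). The part of these markers in the partners' values was not tested. On tested probe sets the log2 signals of same-numbered arrays correlated across probe sets at 0.967 and 0.945, and those of the same genotype at 0.910 and 0.891, so the number separated the arrays more than the genotype did.

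All 9 measured partners kept a readable signal without PTIP. That level was the 40th percentile of the mean log2 signal of all probe sets, and 20 of the 22 probe sets passed it; the 2 that did not are dim probe sets of Trp53bp1. With limma, 0 of the 20 passed an adjusted p under 0.05, as did 0 (0%) of all 27022 probe sets tested, and 0 of the 20 reached an unadjusted p under 0.05, where 2.31% of all did. The unadjusted p of the 20 ran from 0.0943 to 0.989 and the adjusted p was 0.9998 for each. The 95% interval of all 20 differences included 0, and it stayed wide: the lowest bound was -1.51 and the highest 1.99 on the log2 scale. These intervals do not show equal levels. In the fit, the number counts as error, so each genotype difference is also given within number 1 and within number 2, where 1 array of each genotype is compared and no test is possible.

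**Figure D1:**
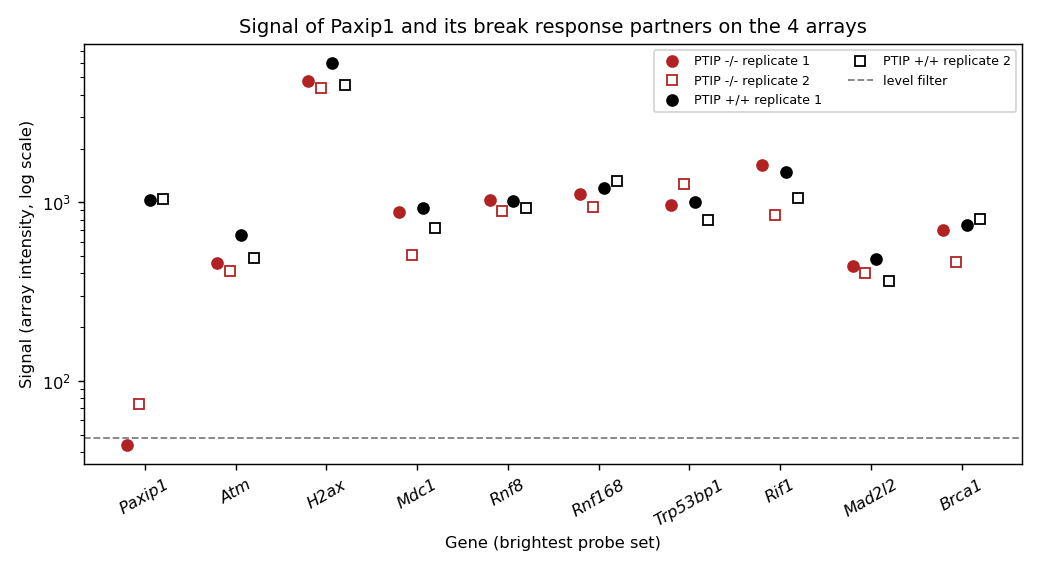
Signal on a log axis of the brightest probe set of Paxip1 and of the 9 measured partners, 1 point for each of the 4 arrays (filled circles, replicate 1; open squares, replicate 2; red, PTIP -/-; dark, PTIP +/+; dashed line, the level filter at 47.7). Paxip1 separates the genotypes (43.5 and 74.6 against 1029.5 and 1040.1), while the partners lie above the filter on every array; heights are not comparable between genes, since each probe set has its own response.

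On the brightest probe set of each gene, 7 of the 9 partners were lower in PTIP -/- and 2 higher, with a median log2 difference of -0.20. Over all 20 tested probe sets, 12 were lower and 8 higher, with a median of -0.03. Over all 12509 genes tested the median was 0.05 and 43.9% were lower. The partners' median was -0.10 within number 1 and -0.24 within number 2. It depended on single arrays: leaving out PTIP -/- replicate 1 gave -0.41 and leaving out its replicate 2 gave 0.08, while leaving out PTIP +/+ replicate 1 gave 0.00 and its replicate 2 gave -0.33. Of the 20 probe sets, 5 were lower within both numbers (22.3% of all tested) and 5 higher within both (35.9%), and the other 10 differed in sign between the numbers. Both PTIP -/- arrays lay below both PTIP +/+ arrays for 3 (10.5% of all tested) and above them for 2 (18.0%).

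**Figure D2:**
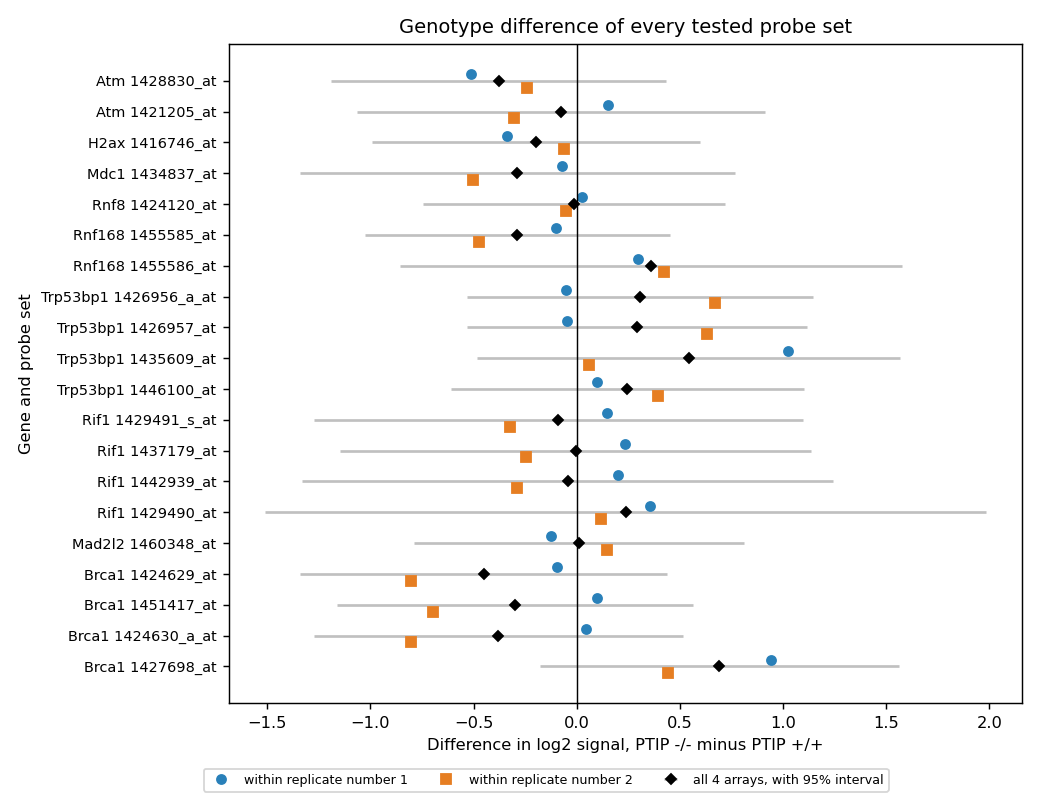
Difference in log2 signal, PTIP -/- minus PTIP +/+, for each of the 20 tested probe sets (diamonds with 95% intervals of the limma fit on 4 arrays; blue circles, within number 1; orange squares, within number 2). Every interval crosses 0, and the number 2 values reach farthest for Brca1 (-0.80) and Trp53bp1 (0.67).

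Promoter sequences were at hand for 8 of the 10 genes, all but Rif1 and H2ax, from RefSeq on build GRCm38.p6 (250 bases before to 50 after a transcription start). The promoters of Trp53bp1, Brca1 and Mdc1 are shown because, among the partners, these 3 lay farthest from 0 within number 2, Trp53bp1 above it and Brca1 and Mdc1 below. They were searched on both strands for motifs of genes that follow the cell cycle: the E2F site (TTTGGCGC, TTTCCCGC, TTTCGCGC or TTTGCCGC), the CCAAT box (CCAAT) and the CHR element (TTTGAA), and for the cyclic AMP response element (TGACGTCA). Capitals mark a match.
Trp53bp1, chr2:121271358-121271657, minus strand: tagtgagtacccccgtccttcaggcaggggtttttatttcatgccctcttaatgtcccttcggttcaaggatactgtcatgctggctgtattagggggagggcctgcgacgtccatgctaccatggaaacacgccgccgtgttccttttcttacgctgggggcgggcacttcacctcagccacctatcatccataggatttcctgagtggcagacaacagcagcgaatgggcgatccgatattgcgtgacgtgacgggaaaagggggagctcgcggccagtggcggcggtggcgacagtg
Brca1, chr11:101551906-101552205, minus strand: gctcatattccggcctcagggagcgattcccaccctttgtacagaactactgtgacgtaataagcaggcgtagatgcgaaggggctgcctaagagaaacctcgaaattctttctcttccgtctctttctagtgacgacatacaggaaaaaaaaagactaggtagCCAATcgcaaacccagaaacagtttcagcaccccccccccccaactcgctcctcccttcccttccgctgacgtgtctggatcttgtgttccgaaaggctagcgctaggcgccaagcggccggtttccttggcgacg
Mdc1, chr17:35841248-35841547, plus strand: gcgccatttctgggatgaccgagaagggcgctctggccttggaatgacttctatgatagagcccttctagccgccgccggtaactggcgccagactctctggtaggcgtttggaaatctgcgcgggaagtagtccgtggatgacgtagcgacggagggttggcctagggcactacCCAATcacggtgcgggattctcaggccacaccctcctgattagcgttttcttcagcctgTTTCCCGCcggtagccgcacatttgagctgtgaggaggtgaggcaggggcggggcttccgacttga

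Brca1 and Mdc1 each held 1 CCAAT box, whose first base lay 86 and 75 bases before the start, and Mdc1 also held 1 E2F site beginning 16 bases before it. The Trp53bp1 promoter held none of the 4 motifs. Among all 32851 promoters in the table, 37.4% held a CCAAT box, 2.26% an E2F site, 17.9% a CHR element and 1.79% a cyclic AMP response element. In the promoters not shown, Atm, Rnf8, Dclre1c and 1 of the 2 promoters of Mad2l2 held a CCAAT box, Rnf8 also a CHR element, and Rnf168 none of the 4 motifs. Within number 2, on the brightest probe set, the genes with a CCAAT box gave -0.80 (Brca1), -0.50 (Mdc1), -0.24 (Atm) and -0.05 (Rnf8). Mad2l2, with a box in 1 of its 2 promoters, gave 0.15. Those without one gave -0.47 (Rnf168) and 0.67 (Trp53bp1). Within number 1, the genes with a box gave -0.10 (Brca1), -0.07 (Mdc1), -0.51 (Atm) and 0.03 (Rnf8). There Mad2l2 gave -0.12, and the genes without a box gave -0.10 (Rnf168) and -0.05 (Trp53bp1). A link between motif and direction was not tested. A match of letters is a description of the sequence and nothing more. All 3 promoters were rich in CpG, with 20 CpG dinucleotides in that of Trp53bp1, 19 in that of Brca1 and 22 in that of Mdc1.

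The apical kinase and its histone target come first in the pathway, and neither passed the test. Atm on its brighter probe set read 459.5 and 410.8 against 654.9 and 486.2. Both PTIP -/- values lay below both PTIP +/+ values, with a log2 difference of -0.38 ± 0.30 (SE). The second Atm probe set read 427.7 and 258.6 against 385.2 and 319.2, with overlapping groups and a difference of -0.08 ± 0.37 (SE), 0.15 within number 1 and -0.30 within number 2. H2ax, the gene of the histone variant that carries the break mark, read 4764.7 and 4362.8 against 6017.7 and 4553.2. The PTIP +/+ array numbered 1 stood above the other three, and the difference was -0.20 ± 0.30 (SE), with 0.00 once that array was left out.

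The adaptor and the 2 ubiquitin ligases gave small differences as well. Mdc1 read 878.0 and 506.5 against 923.8 and 718.5, lowest on the PTIP -/- array numbered 2. Its difference was -0.29 ± 0.39 (SE), being -0.07 within number 1 and -0.50 within number 2, and 0.11 without PTIP -/- replicate 2. Rnf8, which starts the ubiquitin signal, had the smallest error of the 20 probe sets, with 1032.4 and 895.2 against 1014.0 and 928.9. Its difference was -0.01 ± 0.27 (SE), with a 95% interval from 0.597-fold to 1.64-fold of PTIP +/+. Rnf168, which extends the signal on H2A, read 1113.1 and 944.9 against 1195.5 and 1312.2 on its brighter probe set. Here the groups did not overlap and the difference was -0.29 ± 0.28 (SE). The dimmer Rnf168 probe set, built on the same record, pointed the other way, at 250.6 and 152.8 against 203.9 and 114.0 (0.36 ± 0.45, SE). It separated the arrays by number rather than by genotype, and the pair gives no common direction for the gene.

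Trp53bp1, which encodes 53BP1 itself, was higher without PTIP on all 4 tested probe sets, but not in the same arrays. The brightest read 966.9 and 1265.9 against 1003.7 and 796.4. A second probe set of the same record read 517.4 and 684.4 against 533.9 and 442.6. On both, the genotypes were nearly equal within number 1 (-0.05 on each) and PTIP -/- was 1.59-fold and 1.55-fold higher within number 2, with overall differences of 0.31 ± 0.31 and 0.29 ± 0.31 (SE). Another probe set did the reverse, at 204.7 and 184.6 against 100.7 and 176.9, 2.03-fold higher within number 1 and 1.04-fold within number 2 (0.54 ± 0.38, SE). Its 2 PTIP -/- values lay above both PTIP +/+ values, of which that of the array numbered 1 stood apart. The fourth read 115.7 and 99.9 against 108.1 and 76.1 (0.25 ± 0.32, SE), with overlapping groups. The first 3 stayed above 0 under the other scalings and with any single array left out, but not at the same size. Without PTIP -/- replicate 2 the bright pair gave 0.11 and 0.09, and centring the arrays gave 0.13 and 0.11. Without PTIP +/+ replicate 1 the third gave 0.14, and without PTIP +/+ replicate 2 the fourth gave -0.01. The 2 dim probe sets read 18.1 and 49.2 against 3.3 and 32.2, and 23.3 and 30.9 against 6.3 and 5.4, under or next to the readable level, so no fold is given.

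Rif1, the 53BP1 effector that blocks resection, followed the replicate number on all 4 of its probe sets. The brightest read 1625.3 and 844.8 against 1469.3 and 1056.8, so that the array numbered 1 was 1.92-fold above that numbered 2 in PTIP -/- and 1.39-fold in PTIP +/+. The second read 825.1 and 441.9 against 700.9 and 524.6, the next 238.3 and 115.0 against 207.2 and 140.7, and the dimmest 232.8 and 90.5 against 181.8 and 83.4. In each, both number 1 arrays lay above both number 2 arrays. The genotype difference was small beside that split: -0.09 ± 0.44, -0.01 ± 0.42, -0.04 ± 0.48 and 0.24 ± 0.65 (SE). It was above 0 within number 1 on all 4 (0.15 to 0.36) and below 0 within number 2 on 3 of them (-0.32 to -0.25, with 0.12 on the dimmest). The dimmest had the widest error of the 20. Thy1 and Pdgfra were also lower on the arrays numbered 2 in both genotypes, but most other fibroblast markers were not. Of the 10, 5 were lower on the array numbered 2 in PTIP -/- and 2 in PTIP +/+. The part of such differences between the numbers in the Rif1 values was not tested.

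Mad2l2, the shieldin subunit also known as REV7, read 441.3 and 401.0 against 481.2 and 362.5. The PTIP -/- values lay between the PTIP +/+ values. The difference was 0.01 ± 0.30 (SE), with a 95% interval from 0.579-fold to 1.75-fold, and it turned to -0.07 with quantile normalization and -0.17 with arrays centred on their medians. It was the only one of the 20 to change sign with the scaling.

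Brca1, which acts against 53BP1 at the break, was lower without PTIP on 3 of its 4 probe sets, almost wholly within number 2. The brightest read 700.1 and 462.0 against 749.1 and 806.9, with the PTIP -/- array numbered 2 below the other three. That is a mean log2 signal of 9.15 ± 0.42 (SD, n = 2) against 9.60 ± 0.08 (SD, n = 2), and a difference of -0.45 ± 0.33 (SE). Within number 1 it was -0.10 and within number 2 -0.80, a 1.75-fold lower signal. A second probe set read 237.4 and 180.1 against 221.9 and 292.0, and the next 137.7 and 95.6 against 133.6 and 166.9. They were 1.62-fold and 1.75-fold lower within number 2, against 1.07-fold and 1.03-fold higher within number 1, with overall differences of -0.30 ± 0.32 and -0.38 ± 0.33 (SE). These 3 probe sets share 1 sequence record. The fourth Brca1 probe set, built on another record, gave the opposite sign and, before adjustment, the smallest p of the 20. It read 168.0 and 113.0 against 87.5 and 83.2, both PTIP -/- values above both PTIP +/+ values, a difference of 0.69 ± 0.32 (SE). It was 1.92-fold higher within number 1 and 1.36-fold within number 2. The part of the transcript it reads is not stated.

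**Figure D3:**
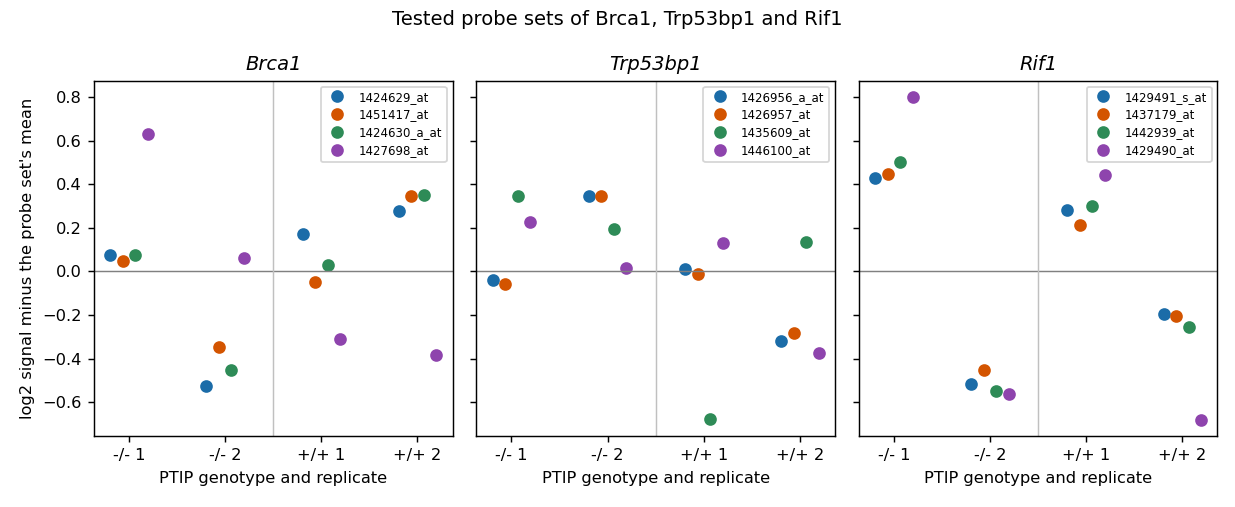
The log2 signal of each tested probe set minus its own mean over the 4 arrays, for Brca1, Trp53bp1 and Rif1 (x axis, genotype and replicate; 1 colour for each probe set). Brca1 has 3 probe sets lowest on the PTIP -/- array numbered 2 and 1 that separates the genotypes the other way; Trp53bp1 has 2 probe sets highest on that array; all 4 of Rif1 are higher on the arrays numbered 1 in both genotypes.

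Within number 1, 2 of the 20 probe sets were at least 1.5-fold higher (13.9% of all tested) and 0 at least 1.5-fold lower (5.78%). The higher ones were the Trp53bp1 probe set that differed most within number 1 and the fourth of Brca1. Within number 2, 2 were at least 1.5-fold higher (17.5%), the bright pair of Trp53bp1, and 3 at least 1.5-fold lower (11.8%), the probe sets of Brca1 that share a record. These shares are near those of the whole array. Between the numbers, 18 of the 20 were lower on the PTIP -/- array numbered 2 than on that numbered 1 (58.2% of all tested), and 15 of 20 in PTIP +/+ (53.8%). The median of that difference was -0.46 in PTIP -/- and -0.35 in PTIP +/+ over the 20, and -0.11 and -0.06 over all probe sets tested. Rif1 and Brca1 supply 8 of the 20. The 2 of the 20 that were not lower in PTIP -/- were the bright pair of Trp53bp1. On the brightest probe set of each of the 9 genes the median was -0.21 in PTIP -/- and -0.36 in PTIP +/+. Over all 12509 genes tested it was -0.04 and -0.03. Of the 9 genes, 8 were lower on the array numbered 2 in PTIP -/- and 7 in PTIP +/+, against 6660 and 6482 of the 12509.

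Genes of DNA replication and mitosis were read beside the partners. All 19 replication genes tested were lower in PTIP -/-, by a median of -0.45, with -0.19 within number 1 and -0.75 within number 2; all 14 mitosis genes were lower too (43.9% of all genes tested were), by a median of -0.41, with -0.13 and -0.78. With quantile normalization all 19 and all 14 stayed lower. Centring the arrays adds -0.18 to every difference, so it could not turn any of them. Within number 1, 16 of the 19 and 12 of the 14 were lower (5786 of all 12509 genes tested were). Within number 2, 18 of the 19 and all 14 were (5703 of the 12509). Medians with 1 array left out are not given for these lists. Tk1, a thymidine kinase of S phase, lay farthest among the former (-1.01 ± 0.45, SE) and Prc1, a spindle midzone protein, among the latter (-0.92 ± 0.38, SE). In these lists, 0 passed the adjusted p with limma and 1 in each reached an unadjusted p under 0.05, where 2.31% of all probe sets did. The 3 Brca1 probe sets of one record were also lower within number 2, but within number 1 only the brightest was lower. The part of cell division in the Brca1 values was not tested.

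Genes with the pattern over the 4 arrays most like that of a partner were sought among 23047 tested probe sets with 1 symbol, by the root mean square difference of log2 signals centred on their means. The nearest to the brightest Brca1 probe set were Ncaph, a condensin subunit (0.0134), Tacc3, a spindle protein (0.0212), and Tmem209 (0.0277). Ncaph read 1330.9 and 892.2 against 1455.8 and 1536.9. The nearest to the brightest Trp53bp1 probe set were Tnrc6c, a partner of Argonaute proteins (0.0184), Efl1, a ribosome maturation GTPase (0.0192), and Crybg3 (0.0203). Tnrc6c read 509.4 and 651.8 against 526.7 and 424.9. With 4 arrays such likeness is a description only.

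The rest of the break response was read from lists of 67 further genes, of which 62 had a probe set and 59 were tested. With limma, 0 of the 59 passed the adjusted p and 0 reached an unadjusted p under 0.05. In all, 40 of the 59 were lower in PTIP -/- (67.8%, against 43.9% of all genes tested), with a median log2 difference of -0.18 that was -0.03 within number 1 and -0.27 within number 2. Leaving out PTIP -/- replicate 1 gave a median of -0.24 and leaving out its replicate 2 gave -0.03. Leaving out PTIP +/+ replicate 1 gave -0.09 and leaving out its replicate 2 gave -0.11. Quantile normalization gave -0.22, and centring the arrays on their medians gave -0.36. Pagr1a, which binds PTIP in its other, chromatin-modifying complex, gave -0.30 ± 0.29 (SE).

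Upstream, the kinases and the MRN complex had 6 of 9 lower around a median of -0.20. Mre11a, the MRN nuclease, gave -0.49 ± 0.29 and Topbp1, an activator of ATR, -0.37 ± 0.27, while Prkdc, the catalytic subunit of DNA-PK, gave 0.03 ± 0.28 and the checkpoint kinase Chek2 0.25 ± 0.47 (all SE). In ubiquitin signalling, 8 of 11 were lower around a median of -0.08. Its extremes were the BRCA1-A complex members Babam2 (-0.22 ± 0.34, SE) and Uimc1 (-0.20 ± 0.36, SE), and Rnf169, a paralogue of Rnf168 (0.21 ± 0.39, SE), and L3mbtl2, a chromatin reader (0.21 ± 0.28, SE).

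End protection was the one list with a median above 0, with 4 of 7 higher around 0.09, but -0.05 with quantile normalization and -0.09 with centred arrays, and 0.04 and -0.12 within the numbers. Stn1, a subunit of the CST complex that fills in resected ends, read 345.9 and 375.3 against 271.7 and 288.6. It was higher in both PTIP -/- arrays, with a difference of 0.36 ± 0.26 (SE), 0.35 within number 1 and 0.38 within number 2. Shld2, a shieldin subunit, read 262.5 and 315.2 against 237.7 and 235.3 (0.28 ± 0.27, SE). On the other side, Trip13, the ATPase that remodels MAD2L2, read 2144.1 and 1763.9 against 2690.6 and 2364.3 (-0.38 ± 0.28, SE), and Pola1, the DNA polymerase of the fill-in step and of replication, gave -0.42 ± 0.63 (SE).

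Resection genes had 5 of 7 lower around a median of -0.24, with -0.17 and -0.47 within the numbers. Blm, the Bloom helicase, read 337.0 and 230.1 against 408.7 and 548.6, the groups apart and the difference -0.77 ± 0.35 (SE), but -0.28 within number 1 and -1.25 within number 2. The helicase Wrn gave 0.27 ± 0.59 and the nuclease Dna2 0.37 ± 0.77 (SE). Homologous recombination had 7 of 10 lower around a median of -0.30, with -0.10 and -0.43 within the numbers. Palb2, the bridge between BRCA1 and BRCA2, read 223.8 and 166.4 against 255.5 and 318.3 (-0.56 ± 0.32, SE). Rad52, an annealing factor, read 227.8 and 218.0 against 192.6 and 131.5 (0.49 ± 0.32, SE).

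Classical end joining, the pathway that 53BP1 favours, had 6 of 9 lower around a median of -0.18, with -0.01 and -0.31 within the numbers. Its 2 Ku subunits pointed in opposite directions. Xrcc5, Ku80, read 296.7 and 457.8 against 231.4 and 274.7 (0.55 ± 0.35, SE), whereas Xrcc6, Ku70, read 798.4 and 582.1 against 1048.1 and 769.6 (-0.40 ± 0.34, SE). Nhej1, which encodes the ligation factor XLF, read 61.0 and 59.8 against 87.8 and 92.7, close to the readable level. Its difference, -0.58 ± 0.26 (SE), was -0.53 within number 1 and -0.63 within number 2, and its unadjusted p with limma missed 0.05. The ligase gene Lig4 gave 0.17 ± 0.34 (SE).

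Among H2A variants and H2AX partners, 7 of 9 were lower around a median of -0.15, with 0.01 and -0.30 within the numbers. The phosphatase genes Eya4 (-1.85 ± 1.70, SE) and Eya1 (-0.45 ± 0.68, SE) had the widest errors of the list. Eya4 read 27.7 and 547.1 against 188.2 and 1047.9, lower on the array numbered 1 in both genotypes, and its difference rests on a signal under the readable level. Eya1 read 1377.6 and 427.7 against 1369.5 and 799.9, higher on the array numbered 1 in both. Eya3, of the same family, gave 0.11 ± 0.28 and Macroh2a1, a macro histone, 0.04 ± 0.27 (SE).

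**Figure D4:**
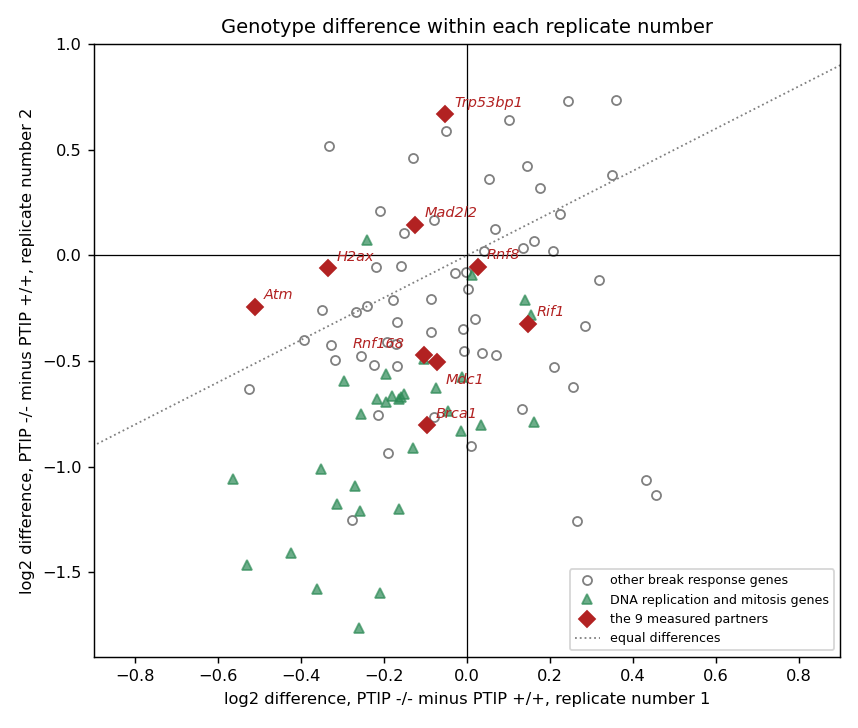
Difference in log2 signal, PTIP -/- minus PTIP +/+, within number 1 (x axis) and within number 2 (y axis), on the brightest probe set of the 9 measured partners (red), 58 other break response genes (grey rings) and 32 replication and mitosis genes (green); Eya4 lies outside the axes, and the dotted line marks equal differences. Brca1 gave -0.10 and -0.80, and Trp53bp1 -0.05 and 0.67. Within number 2, the replication genes ran from -1.76 to 0.07 and the mitosis genes from -1.60 to -0.09. Among the partners, Trp53bp1 (0.67) and Mad2l2 (0.15) lay above both ranges, and the others did not. The fourth Brca1 probe set, not drawn, gave 0.94 and 0.44. The part of cell division in these values was not tested.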

How the data were processed

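The authors deposited array intensities on a linear scale for 45101 probe sets on 4 arrays. RMA is named in the submitters' processing notes, with no version, though the values are linear, differ in their quantiles between arrays and have a 2% trimmed mean of 499.8 to 499.9 on each, which is what scaling to a common mean gives. The background correction and probe summary are not stated. Medians ran from 75.8 to 97.8. Such scaling leaves the medians free; centring them would add -0.18 to every log2 difference.

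The 64 control probe sets were left out, 1 value of 0 was set to 0.1, and intensities were taken to log2. Of the other probe sets, 34945 had 1 symbol, 932 several and 9160 none. For 34741 of those with 1 symbol the gene was found in the RefSeq table of GRCm38.p6. Its symbol there was used, whether or not it differed. The genotypes were compared in limma 3.58.1 (R 4.3.3), with lmFit and eBayes, no covariate, over the 27022 probe sets with a mean at or above the 40th percentile (signal 47.7), adjusted by Benjamini-Hochberg; 18015 were not tested. Where both arrays of the dimmer group lay under 47.7, the fold was taken against 47.7 and is written "at least"; no detection calls were used here. A gene is represented by its brightest probe set in the lists. The script was tested on simulated data, where the adjusted threshold missed most of the changes put in, so 0 calls do not show that levels were equal.

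The members, lists and motifs were chosen with earlier results of these data known. Named genes are all members, Paxip1, Pagr1a, the 2 highest and 2 lowest genes of each break response list, the farthest replication and mitosis gene, the brightest marker of each cell type and the 3 genes most like Brca1 and Trp53bp1; for homologous recombination 1 gene at each end is given, and the others are not reported here. Ncaph, Tnrc6c, Stn1, Shld2, Trip13, Blm, Palb2, Rad52, Xrcc5, Xrcc6, Nhej1 and Eya4 have signals by array because they were singled out after their values were seen, as were Eya1, Thy1, Pdgfra, Cdh1, Pecam1, Des, Myod1, Actn2 and Krt18. Alternatives were 2 other scalings, 2 other filters, a variance trend with robust moderation, 1 probe set a gene, raised low signals, the replicate block and each array left out.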

Additional observations from a re-analysis of the deposited data

How the results depend on the processing

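Under all 12 alternatives, 0 of the partners' probe sets, 0 of the wider break response genes and 0 of all probe sets passed the limma threshold after adjustment. That is no sign of stability, since Paxip1 itself did not pass it in the main fit. Before adjustment, at p under 0.05, the partners' count was 0 except without the level filter, where 1 of 22 passed, a Trp53bp1 probe set under the readable level on all arrays; over all probe sets that count was 624 in the main fit, 1897 of 45037 without a filter, 392 of 18015 with the filter at the 60th percentile and 286 of 12509 with 1 probe set a gene. The 2 other scalings and the 4 fits without 1 array could move the partners' differences; the other alternatives could not or did not. Under those 6, of the 20 partner probe sets, 9 kept their sign (1 of Atm and of Rnf168, 3 of Trp53bp1, all 4 of Brca1) and 11 changed it under at least 1. The partners' median of -0.20 ran from -0.41 to 0.079 with 1 array left out, was -0.15 with quantile normalization and -0.38 with centred arrays.

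With the replicate number as a block, 0 partner probe sets passed (adjusted p from 0.648 for the fourth Brca1 probe set), 0 of all probe sets passed, and the unadjusted count over all probe sets was 2018, with 0 partners among them; in this balanced layout the block cannot move a difference. The labels do not say that a number marks a shared culture, and with 2 numbers the pairing could not be decided from the data; the difference between the numbers in PTIP -/- correlated with that in PTIP +/+ at 0.643 across probe sets. The unadjusted count was 394 without PTIP -/- replicate 2 and 1509 without PTIP +/+ replicate 1. Leaving out 1 array leaves a single array in that genotype, assumed to vary like the other. The number of arrays limits the precision, and without the block any effect of the number is part of the error.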
